A study of Canis lupus with 20 samples.

Results

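A set of 7 receptor, enzyme and channel genes of the endothelin, angiotensin and sodium channel systems was followed in dog heart: the endothelin receptors EDNRA and EDNRB, the angiotensin II receptors AGTR1 and AGTR2, the aminopeptidase LNPEP, the epithelial sodium channel subunit SCNN1A and its ubiquitin ligase NEDD4L. They were taken by name, as every probe set whose only gene symbol in the array's annotation is one of these 7 genes. These are 7 of the 15115 genes that the annotation names alone, and they gave 13 of the 43035 probe sets of the table, of which 9 were bright enough to be tested, with at least 1 for each of the 7 genes. A probe set is a group of short probes on the array that reads 1 transcript region, and its signal is given on a log2 scale, where a difference of 1 is a doubling. Each gene is led by its brightest probe set, the one with the highest mean over all 20 arrays. Signals of different genes are not set against each other, because probes differ in how strongly they bind.

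The tissue came from normal dogs that had either a right-sided uninephrectomy, which removes the right kidney and leaves the left, or a sham operation, and whose hearts were taken 12 weeks later. Left atrium and left ventricle were each measured on 5 arrays per operation, which gives the 4 groups sham atrium, uninephrectomy atrium, sham ventricle and uninephrectomy ventricle. The design assigned 6 dogs to each operation and states that no replicate arrays were made; the labels used here give no genotype, breed, age or drug. RNA came from pieces of whole tissue, so fewer cells of a type and less RNA per cell cannot be told apart.

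Endothelin is a vasoconstrictor peptide made mainly by endothelium. In the heart its type A receptor, EDNRA, is known from smooth muscle, cardiomyocytes and fibroblasts, and its type B receptor, EDNRB, from endothelium, where it releases nitric oxide and clears endothelin. Angiotensin II acts chiefly through AGTR1, which raises vascular tone, growth and aldosterone, while AGTR2 often opposes it, and LNPEP, also called insulin-regulated aminopeptidase, binds the fragment angiotensin IV. Aldosterone raises sodium uptake in the kidney through the epithelial sodium channel, of which SCNN1A is the alpha subunit, and NEDD4L is the ligase that marks this channel and several others, among them the cardiac sodium channel, for removal from the membrane.

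The tissues could be told apart by their own markers. The ventricular light chain MYL2 averaged 14.66 in the sham ventricle and 3.81 in the sham atrium, and the atrial light chain MYL4 averaged 14.33 in the sham atrium and 8.45 in the sham ventricle. Array medians lay between 2.33 and 2.39, and no 2 arrays held identical values. Each difference below is a log2 estimate ± its standard error from a limma fit of 5 arrays a group. A gene counts as called where its p, adjusted over all 30047 tested probe sets by the Benjamini-Hochberg method, is under 0.05.

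Chamber, not operation, separated the 3 members that passed the test. EDNRA and NEDD4L were higher in the atrium and SCNN1A was higher in the ventricle, in sham and in uninephrectomized dogs alike. In sham dogs these were 3 of 7 members, where 22.8% of the 11423 genes tested were called between the chambers. In uninephrectomized dogs they were again 3 of 7, where 29.9% of all genes were called. After uninephrectomy against sham, limma called 0 of the 7 members in the atrium, in the ventricle and for the difference of both effects, and 0% of all genes were called in each. At an unadjusted p under 0.05 the counts were 0 members in the atrium, 1 in the ventricle (EDNRA) and 0 for the difference, beside 6.62%, 6.22% and 2.80% of all genes. The median difference over the 7 members was -0.06 between sham chambers and 0.03 between uninephrectomy chambers, beside medians of -0.01 and -0.02 over all genes.

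**Figure D1:**
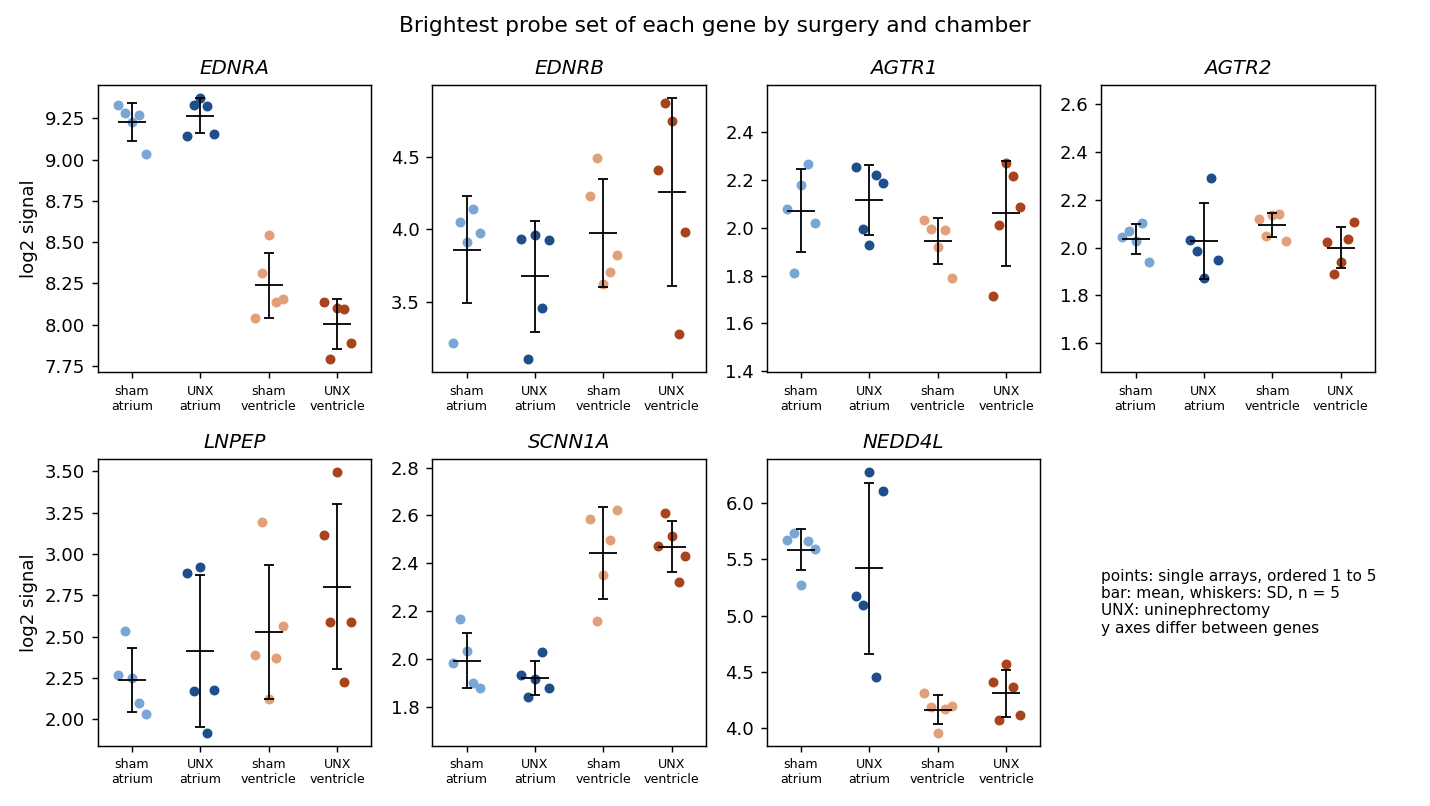
Log2 signal (y axis, a range of its own for each gene) of the brightest probe set of the 7 genes in the 4 groups (x axis; UNX, uninephrectomy). Points are single arrays, bars are means and whiskers are SDs (n = 5). EDNRA and NEDD4L lie higher in the atrium and SCNN1A higher in the ventricle, while NEDD4L spreads from 4.45 to 6.28 in the uninephrectomy atrium.

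EDNRA, the type A receptor, read 9.33, 9.28, 9.23, 9.27 and 9.03 in the sham atrium and 8.04, 8.31, 8.54, 8.14 and 8.15 in the sham ventricle. In uninephrectomized dogs it read 9.14, 9.33, 9.37, 9.32 and 9.16 in the atrium and 8.14, 7.79, 8.10, 8.09 and 7.89 in the ventricle. All atrial arrays lay above all ventricular arrays, and the lowest atrial value, 9.03, stood clear of the highest ventricular one, 8.54. The atrium exceeded the ventricle by 0.99 ± 0.09 in sham dogs (1.99-fold, limma adjusted p = 4.44e-07). After uninephrectomy the atrium exceeded the ventricle by 1.26 ± 0.09 (2.40-fold, limma adjusted p = 1.52e-08).

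A second, dimmer EDNRA probe set showed the same separation of the chambers. Its means were 3.28 ± 0.32 (SD, n = 5) in the sham atrium, 3.55 ± 0.44 in the uninephrectomy atrium, 2.30 ± 0.09 in the sham ventricle and 2.36 ± 0.20 in the uninephrectomy ventricle. The atrial and ventricular values did not overlap under either operation. The chamber difference was 0.98 ± 0.18 in sham dogs (limma adjusted p = 0.000544) and 1.19 ± 0.18 after uninephrectomy (limma adjusted p = 5.63e-05).

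Uninephrectomy left EDNRA in the atrium at a difference of 0.04 ± 0.09, with a 95% confidence interval from -0.16 to 0.23. In the ventricle the brightest probe set differed by -0.24 ± 0.09 (95% confidence interval -0.43 to -0.04; limma unadjusted p = 0.0218, adjusted p = 0.693), with groups that overlap between 8.04 and 8.14. The dimmer probe set gave 0.06 ± 0.18 for the same comparison, in the opposite direction. The effect in the atrium minus that in the ventricle was 0.27 ± 0.13 (limma unadjusted p = 0.0559, adjusted p = 0.9999), so a different response of the chambers was not called. The 3′ gap, which is how far the 3′ controls for ACTB, GAPDH and EEF1A exceed those for the middle of these transcripts and grows as RNA is shorter, averaged 1.16 in the sham ventricle and 0.94 in the uninephrectomy ventricle (exact permutation p = 0.119). With the gap as a covariate the ventricular EDNRA difference was -0.20 (limma unadjusted p = 0.0682).

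EDNRB, the type B receptor, varied more from array to array and passed no test. It read 3.22, 4.05, 3.91, 4.14 and 3.97 in the sham atrium and 4.23, 4.49, 3.63, 3.70 and 3.82 in the sham ventricle. In uninephrectomized dogs it read 3.93, 3.11, 3.96, 3.46 and 3.93 in the atrium and 4.41, 4.87, 4.75, 3.28 and 3.98 in the ventricle. The groups overlap in every comparison, and array 4 of the uninephrectomy ventricle, at 3.28, stands lowest of its group. The atrium minus ventricle difference was -0.12 ± 0.27 in sham dogs and -0.58 ± 0.27 after uninephrectomy (limma unadjusted p = 0.0457, adjusted p = 0.122). Without that array the latter was -0.82 with an adjusted p of 0.0169 in limma, so this call depends on 1 array. Surgery gave -0.18 ± 0.27 in the atrium and 0.28 ± 0.27 in the ventricle, neither called, with 95% confidence intervals from -0.75 to 0.39 and from -0.28 to 0.85.

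The angiotensin II receptors were read near the low end of the scale. AGTR1 averaged 2.07 ± 0.17 (SD, n = 5) in the sham atrium, 2.12 ± 0.15 in the uninephrectomy atrium, 1.94 ± 0.10 in the sham ventricle and 2.06 ± 0.22 in the uninephrectomy ventricle. Single arrays ran from 1.71 to 2.27, and all 4 groups overlap. AGTR1 between the chambers gave 0.13 ± 0.10 in sham dogs and 0.06 ± 0.10 in uninephrectomized dogs (limma adjusted p = 0.433 and 0.735). Its response to surgery was 0.05 ± 0.10 in the atrium and 0.12 ± 0.10 in the ventricle, with 95% confidence intervals from -0.17 to 0.26 and from -0.10 to 0.33. The other AGTR1 probe set averaged 1.89, just above the signal below which probe sets were not tested, 1.87, and passed no test either. Its chamber difference in sham dogs was -0.12 ± 0.08, opposite in sign to the brighter one.

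AGTR2 averaged 2.04 ± 0.06 (SD, n = 5) in the sham atrium, 2.03 ± 0.16 in the uninephrectomy atrium, 2.09 ± 0.05 in the sham ventricle and 2.00 ± 0.09 in the uninephrectomy ventricle. All 4 groups overlap, and the highest single array, 2.29, was a uninephrectomy atrium. Differences ran from -0.10 to 0.03 over the surgery and chamber comparisons, each with a standard error of 0.07, and none was called. A second AGTR2 probe set averaged 1.58 and was below the test limit. As about 41.3% of the tested probe sets have group means under log2 3 in every group, the AGTR1 and AGTR2 signals lie where many probe sets do, and whether they rise above background was not tested. The intervals bound changes of signal, not of receptor RNA.

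LNPEP, the angiotensin IV binding aminopeptidase, has 1 probe set and passed no test. It read 2.27, 2.53, 2.25, 2.10 and 2.03 in the sham atrium and 2.39, 3.19, 2.12, 2.37 and 2.56 in the sham ventricle. After uninephrectomy it read 2.89, 2.17, 2.92, 1.92 and 2.17 in the atrium and 3.11, 2.59, 3.50, 2.23 and 2.59 in the ventricle. Arrays 1 and 3 of both uninephrectomy groups and array 2 of the sham ventricle are high, and all groups overlap. Atrium minus ventricle was -0.29 ± 0.24 in sham dogs and -0.39 ± 0.24 in uninephrectomized dogs (limma adjusted p = 0.443 and 0.255). Surgery gave 0.18 ± 0.24 in the atrium and 0.28 ± 0.24 in the ventricle (limma adjusted p = 0.920 and 0.847).

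The same high arrays stood out in a probe set of ERAP2, a related aminopeptidase that trims peptides in the endoplasmic reticulum. That ERAP2 probe set carries the same design number in its name as the LNPEP probe set, with another suffix, and ERAP2 is the gene listed next to LNPEP in the RefSeq table of the assembly mCanLup2.hap1. It read 6.49, 2.33, 6.74, 3.06 and 2.96 in the uninephrectomy atrium and 6.48, 3.81, 6.84, 3.04 and 4.02 in the uninephrectomy ventricle. Of the 20 arrays 5 lay above log2 6, arrays 1 and 3 of both uninephrectomy groups and array 2 of the sham ventricle at 6.16. Over the 20 arrays the LNPEP and ERAP2 probe sets had a Pearson correlation of 0.93, and 0.94 for the deviations from the group means; the arrays share tissue and normalization. A second ERAP2 probe set, with group means from 1.21 to 1.31, had a correlation of -0.19 with LNPEP. Which of the 2 transcripts the LNPEP probe set reads was not tested, so its values are given under the annotated name.

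**Figure D2:**
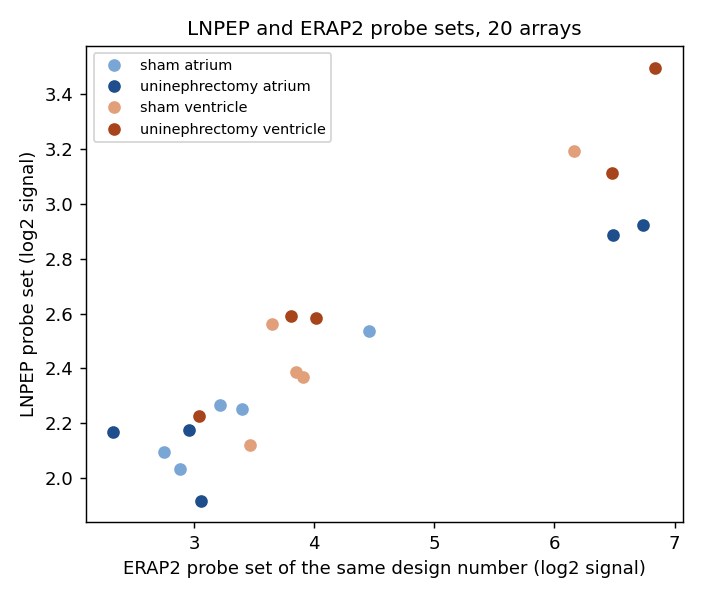
Log2 signal of the LNPEP probe set (y axis) against the ERAP2 probe set of the same design number (x axis), 1 point for each of the 20 arrays, coloured by group. The 5 arrays above 6 on the x axis are among the highest on the y axis, with LNPEP values from 2.89 to 3.50.

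SCNN1A, the alpha subunit of the epithelial sodium channel, was lower in the atrium, at a signal close to the middle of all probe sets. It read 1.98, 2.17, 2.03, 1.90 and 1.88 in the sham atrium and 2.59, 2.16, 2.35, 2.50 and 2.62 in the sham ventricle. In uninephrectomized dogs it read 1.93, 1.84, 1.92, 2.03 and 1.88 in the atrium and 2.47, 2.61, 2.51, 2.32 and 2.43 in the ventricle. The sham groups overlap by a single pair of arrays, 2.17 in the atrium and 2.16 in the ventricle, and the uninephrectomy groups do not overlap. The atrium differed from the ventricle by -0.45 ± 0.08 in sham dogs (1.37-fold, limma adjusted p = 0.000741). In uninephrectomized dogs the difference was -0.55 ± 0.08 (1.46-fold, limma adjusted p = 8.33e-05). Surgery gave -0.07 ± 0.08 in the atrium and 0.03 ± 0.08 in the ventricle, with 95% confidence intervals from -0.25 to 0.10 and from -0.15 to 0.20. Over all probe sets and arrays the median signal was 2.35, so this is a difference among dim values. Whether SCNN1A rises above background was not tested, so the difference is one of signal and not shown for channel RNA. A second SCNN1A probe set, with a mean of 1.61, was below the test limit.

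NEDD4L, the ligase that removes this channel from the membrane, had the largest chamber difference of the 7 members in sham dogs. It read 5.67, 5.74, 5.27, 5.66 and 5.59 in the sham atrium and 4.32, 4.19, 3.96, 4.17 and 4.20 in the sham ventricle. These groups do not overlap, and the atrium was higher by 1.42 ± 0.24 (2.67-fold, limma adjusted p = 0.000346). In uninephrectomized dogs it read 5.17, 5.09, 6.28, 4.45 and 6.11 in the atrium and 4.41, 4.08, 4.57, 4.37 and 4.12 in the ventricle.

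The uninephrectomy atrium was the widest group for NEDD4L, with an SD of 0.76 against 0.18 in the sham atrium, and it held both the highest atrial values and the lowest. Its lowest array, 4.45, fell below the highest ventricular array, 4.57. The atrium still exceeded the ventricle by 1.11 ± 0.24 (2.16-fold, limma adjusted p = 0.00208). Surgery gave -0.17 ± 0.24 in the atrium and 0.14 ± 0.24 in the ventricle, with 95% confidence intervals from -0.68 to 0.34 and from -0.37 to 0.65; the atrial value was 0.08 without the array at 4.45. The other 2 NEDD4L probe sets averaged 1.48 and 1.58 and were below the test limit, so the gene rests on 1 probe set.

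**Figure D3:**
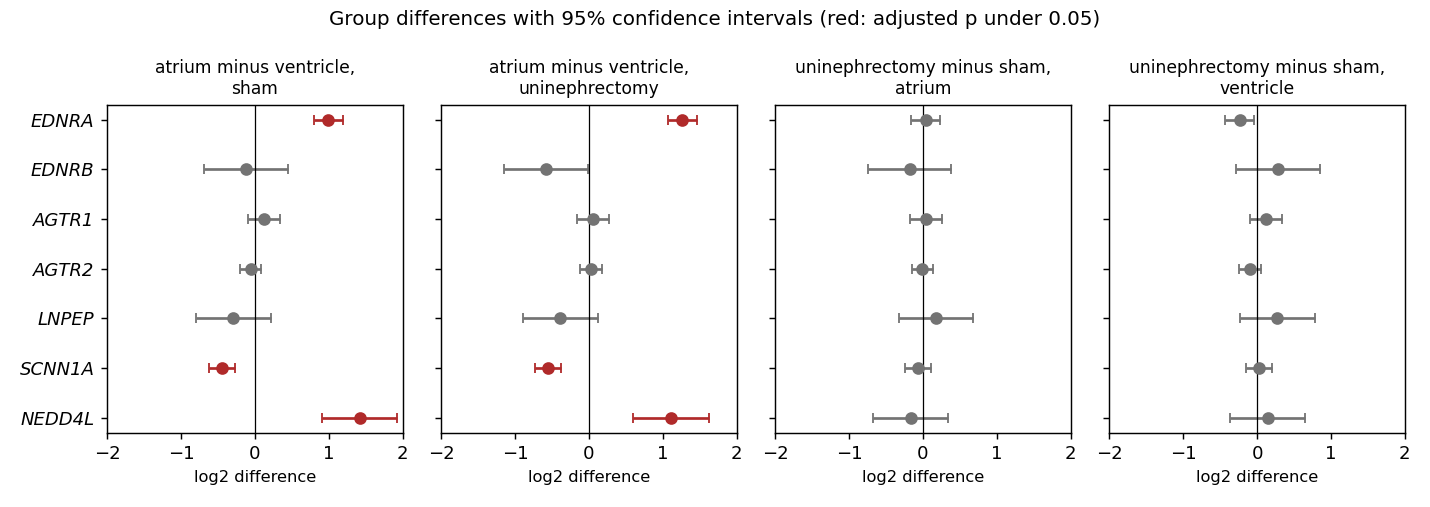
Log2 differences (x axis) of the 7 genes (y axis, brightest probe set) for atrium minus ventricle under each operation and for uninephrectomy minus sham in each chamber. Points are limma estimates, bars are 95% confidence intervals and red marks an adjusted p under 0.05. EDNRA, SCNN1A and NEDD4L are red in both chamber panels and no gene is red in the surgery panels.

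Of the 7 members 2 had groups without overlap between the chambers in sham dogs (EDNRA and NEDD4L), beside 15.8% of all genes tested. In uninephrectomized dogs there were also 2 (EDNRA and SCNN1A), beside 23.5% of all genes. Between operations it was 0 of 7 in each chamber, beside 0.928% of genes in the atrium and 0.910% in the ventricle. As a description, EDNRA and NEDD4L correlated across the 20 arrays with r = 0.82 and EDNRA and SCNN1A with r = -0.91, values that contain the chamber difference. Over the deviations from group means the same pairs had r = 0.01 and -0.34. EDNRB and LNPEP kept a correlation of 0.60 in the deviations, against 0.65 in the levels. The strongest in the deviations was that of NEDD4L and the dim AGTR2, at -0.66 against -0.40 in the levels.

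The genes most like each member were those with the highest Pearson correlation over the 20 arrays among 11422 others. For EDNRA these were ENPP2 (0.98), the lysophospholipase that makes lysophosphatidic acid, ABCG2 (0.97), a drug efflux transporter, and HPGDS (0.97), a prostaglandin D synthase, all with higher means in the atrium. For NEDD4L they were ARMH4, RTN3 and CHRNA5, each at 0.92, and for SCNN1A MYOT (0.96), a Z-disc protein, GTF3A (0.95) and PFDN1 (0.94). Over the deviations from group means, which leave out the chamber, NEDD4L was closest to the nicotinic receptor subunit CHRNA5 and to TPD52 (both 0.84) and to the potassium channel subunit KCNJ8 (0.82). EDNRA was then closest to UFSP2 (0.85), ORC3 (0.81) and MPST (0.78), and SCNN1A to DDX51 (0.81), FGB (0.79) and SPACA9 (0.78). EDNRB was closest to DHODH both ways (0.82 and 0.81). AGTR1 and AGTR2 had no neighbour above 0.67 and 0.76 in the levels. In the deviations AGTR1 was closest to ANKRD39 (0.82) and AGTR2 to ICAM2 (0.83). The best of 11422 genes thus reached such values for dim probe sets too.

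Mean levels of cell type markers also differed between the chambers, and are given beside the chamber differences above. The fibroblast list (8 of 10 markers tested) averaged 8.37 to 9.37 per array in the sham atrium and 7.63 to 8.04 in the sham ventricle, and 8.99 to 10.5 and 7.57 to 8.19 in the uninephrectomy chambers. It was higher in the atrium by 1.11 under sham surgery and by 1.56 after uninephrectomy (exact permutation p = 0.00794 each, the smallest 5 against 5 can give; adjusted p = 0.0317 over 56 comparisons). Smooth muscle and pericyte markers (11 of 12 tested) ran from 7.10 to 7.58 in the sham atrium and 6.92 to 7.13 in the sham ventricle, and from 6.93 to 7.46 and 6.94 to 7.03 after uninephrectomy. This list did not pass between the chambers (0.28 under each operation, exact permutation adjusted p = 0.0833 in sham and 0.156 in uninephrectomized dogs). Its members split, with ACTA2, TAGLN, MYH11, PDGFRB and CNN1 having higher means in the atrium under both operations and DES, KCNJ8, ABCC9, RGS5, LMOD1 and MYOCD lower ones. EDNRA was higher in the chamber with the higher fibroblast signal, and the part of that signal in its difference was not tested. The mean of the endothelial list (10 of 10 tested) was lower in the atrium by 0.22 and 0.29 (exact permutation p = 0.00794 each). That of the cardiomyocyte list (9 of 10 tested) was lower by 0.21 and 0.31 (exact permutation p = 0.00794 each). Not every marker was lower. PECAM1 and ROBO4 had higher means in the sham atrium, TEK in the uninephrectomy atrium and ACTC1 in the atrium under both operations. The exact tests given so far permute single arrays. With signs changed within the 5 same-numbered sham pairs, the exact permutation p was 0.0625 for the sham fibroblast, endothelial and cardiomyocyte lists, the smallest that 5 pairs can give, so no marker list can pass in sham dogs by that test; the direction was the same in 5 of 5 pairs for each.

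The epithelial list had a higher mean in the atrium, where SCNN1A was lower, through 2 of its members. The 4 of 8 markers tested averaged 2.67 to 4.46 in the sham atrium and 2.18 to 2.49 in the sham ventricle, and 2.80 to 4.03 and 2.12 to 2.30 after uninephrectomy. In sham atrium and ventricle EPCAM averaged 4.92 against 2.41 and KRT18 4.29 against 2.22, while KRT7 averaged 2.29 against 2.46 and CLDN7 2.26 against 2.24. After uninephrectomy KRT7 averaged 2.25 against 2.48 and CLDN7 2.22 against 2.25. Adipocyte markers (7 of 7) ran from 4.73 to 7.23 in the sham atrium and 4.56 to 4.70 in the sham ventricle, and from 4.87 to 6.11 and 4.21 to 4.76 after uninephrectomy. The mean of this list was higher in the atrium, as NEDD4L was. So were those of other lists, among them the atrial cardiomyocyte, fibroblast, epithelial, and mesothelial and epicardial lists. The endothelial, cardiomyocyte and ventricular cardiomyocyte lists had lower means there. The adipocyte markers split. FABP4, ADIPOQ, CIDEA, LEP and CIDEC had higher means in the atrium under both operations, and LPL and PLIN1 lower ones. LPL averaged 11.18 in the sham atrium against 11.78 in the sham ventricle, and 10.96 against 11.69 after uninephrectomy. The part of adipocytes in the NEDD4L difference was not tested. The 3′ gap averaged 0.90 in the sham atrium against 1.16 in the sham ventricle (exact permutation p = 0.0794). With the gap as a covariate in limma the sham chamber differences were 1.03 for EDNRA, 1.23 for NEDD4L and -0.42 for SCNN1A, all still called.

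The wider pathways were read from lists of 102 further genes, of which 93 had a probe set of their own and 71 were tested. Limma called 13 between sham chambers, 7 higher and 6 lower in the atrium, and 21 between uninephrectomy chambers, 12 higher and 9 lower. Fitting only the sham arrays reduced the 13 to 8. The median differences of the 71 were -0.02 and -0.05. Of these, 10 genes were called under both operations, in the same direction, which is 10 of the 13 and 10 of the 21. The share of all genes called under both operations was not counted, so the overlap is not read as particular to these lists. Among all genes 12.0% were called higher and 10.8% lower in the sham atrium, and 16.2% and 13.7% in the uninephrectomy atrium.

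In the endothelin system 0 of 5 tested genes passed between sham chambers and 1 of 5 after uninephrectomy, beside 22.8% and 29.9% of all genes. That gene was ECE2, an endothelin converting enzyme, at -0.25 ± 0.06 (limma adjusted p = 0.00297), on signals of 2.12 and 2.37. The ligand gene EDN1, named here for its role after its values were seen, averaged 5.65 ± 1.76 (SD, n = 5) in the sham atrium and 5.02 ± 0.62 in the sham ventricle. In uninephrectomized dogs EDN1 averaged 5.95 ± 1.03 in the atrium and 4.58 ± 0.25 in the ventricle, a difference of 1.37 ± 0.63 that limma did not call (adjusted p = 0.117). EDN3, ECEL1 and MME were below the test limit.

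In the renin-angiotensin list 4 of 12 tested genes passed between sham chambers, beside 22.8% of all genes. ENPEP, the aminopeptidase that makes angiotensin III, was lower in the atrium by 0.67 (difference -0.67 ± 0.21), CTSD, a lysosomal protease, differed by -0.39 ± 0.12, and DPP3, a peptidase that degrades angiotensin II, by -0.84 ± 0.16. PREP, prolyl endopeptidase, was higher by 0.59 ± 0.19. After uninephrectomy 2 of 12 passed, beside 29.9% of all genes. They were DPP3 at -0.58 ± 0.16 and PREP at 0.66 ± 0.19. AGT and ACE were below the test limit.

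In the aldosterone and sodium transport list 3 of 21 tested genes passed between sham chambers, beside 22.8% of all genes. All 3 were higher in the atrium. They were PER1, a clock gene that aldosterone induces, at 0.34 ± 0.10, STK39, the kinase that activates sodium chloride cotransporters, at 0.60 ± 0.18, and YWHAB, a 14-3-3 protein that can bind phosphorylated NEDD4L, at 0.37 ± 0.07. After uninephrectomy 6 of 21 passed, beside 29.9% of all genes. PER1 (0.38 ± 0.10), STK39 (0.67 ± 0.18) and YWHAB (0.52 ± 0.07) were higher again, together with WNK4 (0.78 ± 0.19), a kinase upstream of STK39, and TSC22D3 (0.36 ± 0.13), a steroid-induced gene. FXYD1, the phospholemman subunit of the sodium pump, was lower at -0.16 ± 0.05. The channel's beta and gamma subunits SCNN1B and SCNN1G were below the test limit, and 0 of 3 tested genes of the channel and degenerin family (SCNN1D, ASIC1 and ASIC4) passed in either chamber comparison.

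Among NEDD4 family ligases and their adaptors 2 of 8 passed between sham chambers, beside 22.8% of all genes. NEDD4 itself was below the test limit. WWP1, a close relative of NEDD4L, was lower in the atrium at -0.49 ± 0.06, and NDFIP1, an adaptor that recruits and activates these ligases, was higher at 0.35 ± 0.06. After uninephrectomy 4 of 8 passed, beside 29.9% of all genes. WWP1 (-0.48 ± 0.06) and NDFIP1 (0.45 ± 0.06) did so again, with SMURF1 (-0.40 ± 0.13) and SMURF2 (-0.43 ± 0.14) lower in the atrium. NEDD4L and NDFIP1 were higher and WWP1 lower in the atrium under both operations.

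The last list held genes of Gq receptor signalling and its regulators, for receptors such as EDNRA and AGTR1. Of its tested genes 4 of 23 passed between sham chambers, beside 22.8% of all genes. PLCB1 (0.69 ± 0.15), a phospholipase C, and ITPR1 (0.83 ± 0.14), an inositol trisphosphate receptor, were higher in the atrium. PLCB4 (-0.72 ± 0.19), another phospholipase C, and GRK5 (-0.86 ± 0.22), a receptor kinase, were lower. After uninephrectomy 8 of 23 passed, beside 29.9% of all genes. PLCB1 (0.74 ± 0.15) and ITPR1 (0.90 ± 0.14) were higher again, with RGS2 (1.16 ± 0.30), an inhibitor of Gq, PRKCD (0.99 ± 0.26), a protein kinase C, and ROCK1 (0.46 ± 0.14). PLCB4 (-0.78 ± 0.19), RGS5 (-0.75 ± 0.16), a pericyte regulator of G proteins, and ARHGEF1 (-0.26 ± 0.09) were lower.

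**Figure D4:**
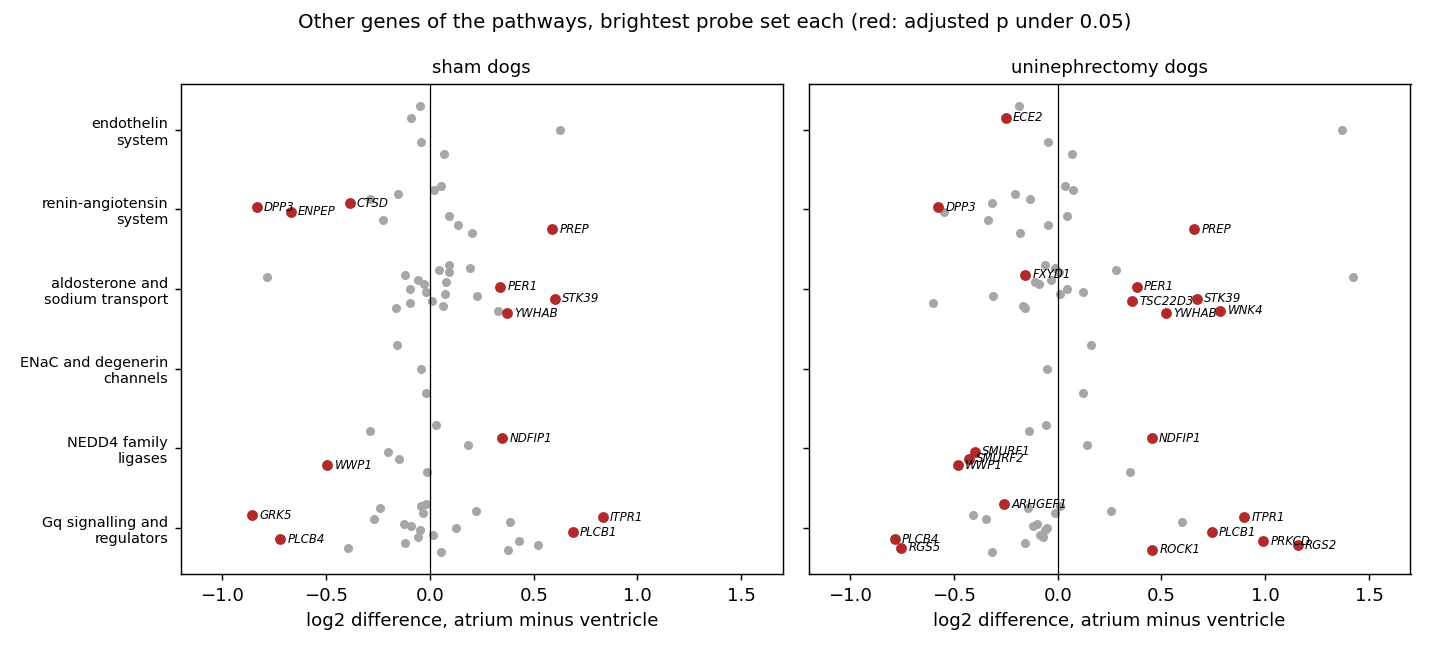
Log2 difference of atrium minus ventricle (x axis) for the other genes of the 6 pathway lists (y axis) in sham dogs and in uninephrectomized dogs. Each point is the brightest probe set of 1 tested gene, and red, named points have a limma adjusted p under 0.05. DPP3, WWP1 and PLCB4 lie left of 0 and PREP, PER1, STK39, YWHAB, NDFIP1, PLCB1 and ITPR1 right of 0 in both panels.

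Uninephrectomy moved 0 of the 71 pathway genes past the adjusted threshold in either chamber or in the difference between them. The share of all genes was likewise 0% in each of these comparisons. Over all genes, 6.62%, 6.22% and 2.80% had a limma unadjusted p under 0.05 in the atrium, in the ventricle and for the difference. Of the 71 pathway genes, 2 did so in the atrium, 3 in the ventricle and 1 for the difference. In the atrium these were HSD11B1, which regenerates cortisol, at 2.67 ± 0.97 (adjusted p = 0.679), with an SD of 2.28 in the uninephrectomy atrium, and the glucocorticoid receptor NR3C1 at -0.33 ± 0.14 (adjusted p = 0.697). In the ventricle they were ECE2 at 0.12 ± 0.06, the channel subunit SCNN1D at -0.20 ± 0.08 and the acid-sensing channel ASIC1 at -0.20 ± 0.08 (adjusted p = 0.740, 0.688 and 0.688), and for the difference ASIC1 again at 0.32 ± 0.11. SGK1, the aldosterone-induced kinase that restrains NEDD4L, was named for its role after its values were seen and gave -0.19 ± 0.18 in the atrium and -0.14 ± 0.18 in the ventricle. The median over the 71 genes was -0.03 in the atrium and -0.01 in the ventricle, beside -0.01 and -0.01 over all genes.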

How the data were processed

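Per the labels, Trizol was used to extract total RNA, and 100 ng of it went into standard Affymetrix IVT Express labelling with biotin. The deposited values are log2 signals of Affymetrix canine probe sets on 20 arrays; their summarization and normalization by the authors are not given in the sources used. Values (0.43 to 15.0) were used as deposited, and differences of dim probe sets depend on that handling. Leaving out 111 controls and the 30% of probe sets with the lowest mean (under 1.87) left 30047. Gene symbols came from the supplied annotation, and genes were counted by their brightest probe set.

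Differences were tested in R 4.3.3 with limma 3.58.1 (lmFit and eBayes, two-sided) in 1 fit over the 20 arrays, which estimates 4 group means and leaves 16 residual degrees of freedom. The median standard error of a group contrast was 0.11. The script was tested on simulated data. Marker lists and the 3′ gap were compared by exact permutation of the arrays (two-sided). Members and lists were chosen with earlier results of these data known. Named genes are the members, their 3 closest genes by each correlation, pathway genes called between chambers and those with an unadjusted p under 0.05 between operations; EDN1 and SGK1 were added later.

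Arrays are numbered within groups in the labels. Over all tested probe sets, sham atrial and ventricular arrays of equal number deviated together (correlations 0.21 to 0.46), which points to pairs, from the data and not the labels. Arrays of equal number of uninephrectomized dogs did not deviate together (-0.24 to 0.11). There, each atrial array correlated best with a ventricular array of another number (0.44, 0.32, 0.17, 0.54 and 0.30 for atrial arrays 1 to 5). In sham dogs the highest correlation with another number ran from -0.01 to 0.09. Whether the uninephrectomy arrays form pairs in another order was not tested. The reported fit and the permutation of single arrays do not use any pairs. The replicate block takes arrays of equal number as pairs under both operations, and the sign changes use the sham pairs only. Where samples are not from separate dogs, p-values measure only the spread between samples. Alternatives tried were other filters, normalizations, blocks, weights, covariates and probe set rules, and leaving out each array. The limma fit on sham arrays alone with a replicate block and the test within sham pairs were chosen after seeing the data. No sequence is given.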

Additional observations from a re-analysis of the deposited data

Results flagged for a closer look

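EDNRB in the first sham atrium array, at log2 3.22, lay apart from the other 4 arrays of its group, which ran from 3.91 to 4.14. Its gap to the nearest of them was 0.753 of the group's range, above Dixon's 95% critical value of 0.71 for 5 arrays. It was the 1 group of 36 examined (9 tested member probe sets in 4 groups) that stood out, and chance alone gives about 1 in 20.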

How the results depend on the processing

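EDNRA, NEDD4L and SCNN1A kept their chamber calls and directions in every alternative that tested them, with each of the 20 arrays left out in turn included; a filter at log2 3 did not test SCNN1A and so left 2 called members in each chamber comparison. The count of members called stayed at 0 in all surgery comparisons and at 3 between sham chambers when single arrays were left out, and was 3 to 4 between uninephrectomy chambers. Fitting only the groups compared reduced the pathway genes called between sham chambers from 13 to 8. With the replicate block, fixed or random, the 3 members stayed called between sham chambers. The pathway count there was 13 fixed, 16 random and 12 on sham arrays alone. The fixed block also called LNPEP between uninephrectomy chambers (-0.39, limma adjusted p = 0.0187), where arrays of equal number did not deviate together and their pairing is not known. It changed no other member's call. Signs turned only for values that were not called. AGTR2 in the atrium after surgery became 0.00073 with equal medians, 0.0031 with quantile normalization and 5.6e-06 with the 3′ gap as covariate; EDNRA there became -0.00092 with array weights. The gap gave -0.017 for NEDD4L and -0.13 for the second EDNRA probe set after surgery in the ventricle, and 0.035 for the LNPEP difference between chambers. Averaging probe sets gave -0.0062 for AGTR1 between uninephrectomy chambers. The causes were not tested. Leaving out single arrays turned signs in these ranges: surgery in the atrium, EDNRA -0.013 to 0.066, NEDD4L -0.38 to 0.075, AGTR1 -0.020 to 0.095 and AGTR2 -0.076 to 0.028; surgery in the ventricle, SCNN1A -0.045 to 0.071; the difference of effects, LNPEP -0.26 to 0.076; between sham chambers, EDNRB -0.20 to 0.045; between uninephrectomy chambers, AGTR1 -0.031 to 0.11 and AGTR2 -0.039 to 0.065. A fit of only the compared groups was not run for the difference of effects, which uses all groups. Low signal limits AGTR1, AGTR2, SCNN1A and LNPEP.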
